A study of Mus musculus with 8 samples.

Results

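Reelin, its receptors and its adaptor were followed through the embryonic mouse cortex by 4 genes: Reln, Vldlr, Lrp8 and Dab1. They were picked by symbol from the 14166 genes of the deposited table, and all 4 were found in it. Reln encodes Reelin, a large secreted glycoprotein of the developing cortex that is best known from Cajal-Retzius cells of the marginal zone and, later, from interneurons. Reelin binds the lipoprotein receptors VLDLR and ApoER2, the product of Lrp8. Both receptors dock the adaptor DAB1 inside the cell, and Src-family kinases then phosphorylate it. Loss of Reelin, of DAB1, or of both receptors together disturbs the layering of cortical neurons, which migrate outward past their predecessors to settle.

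The data are single-nucleus RNA counts from dissected dorsal telencephalon of C57BL/6J embryos (E15.5), from 4 wildtype and 4 Pantr2 knockout (Pantr2-/-) samples, and the series asks how the knockout changes expression there. The targeted locus, Pantr2, makes a long noncoding RNA. Genotype is the only stated difference between the groups. The labels give neither the sex of the embryos nor whether a sample is 1 embryo or a pool, so p-values measure the spread between these samples only. Counts of Pantr2 were not analysed here, so the genotype labels rest on the submitters.

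The 8 libraries add up to 67319 nuclei (33781 wildtype, 33538 knockout). A library held 7280 to 10921 nuclei and 20446698 to 34083796 molecules, counted by unique molecular identifiers (UMIs), with a median of 2570 to 2905 UMIs per nucleus. Within each of the 8 libraries the cell tables hold 1 library date, and dates were not compared across libraries. Between libraries, 1023 nuclei share a barcode sequence with a nucleus of another library, and they were kept. The defining genes of dorsal telencephalon, such as Emx1 and Neurod6, were present in these samples. The summed level of that list of 5 genes was 597.2 to 683.8 CPM (counts scaled to a fixed total per sample) in wildtype and 801.7 to 862.9 in knockout samples. Interneuron genes went the other way, at 107.4 to 148.6 CPM in wildtype and 55.28 to 109.4 in knockout samples over 11 genes. Nothing in the labels says how the dissections compared.

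The authors assigned every nucleus to 1 of 7 clusters. By marker genes, cluster 1 was upper-layer neuron-like (Cux1, Cux2, Pou3f1). Another gene of the upper-layer list went the other way, at 569.7 CPM in cluster 2 against 120.1 CPM in cluster 1. Clusters 2 (Bcl11b, Fezf2, Ldb2, Sox5) and 3 (Tle4, Foxp2, Tbr1, Hs3st4) were deep-layer neuron-like. Cluster 4 was apical progenitor-like (Pax6, Hes1, Vim, Nes and 7 other genes of the list). Cluster 5 was intermediate progenitor-like (Eomes, Neurog2, Btg2, Gadd45g, Mfap4), and Ebf3, from the Cajal-Retzius list, was also among its 10 leading genes. Another gene of the intermediate progenitor list was higher in cluster 1, at 77.4 against 69.7 CPM in cluster 5. The proliferation genes Mki67 and Top2a stood at 17.7 and 27.2 CPM in cluster 5. They were at 14.4 and 26.5 CPM in cluster 1 and at 128.4 and 407.4 CPM in cluster 4. Newborn neurons were not told apart from progenitors in cluster 5. Clusters 6, led by Tafa1, and 7, led by Fam163a, were left unnamed. The names were rebuilt from marker genes and may differ from those of the study. No cluster was named for Cajal-Retzius cells or interneurons: 2 of 11 Cajal-Retzius genes stood out in cluster 5 and 3 of 11 interneuron genes in cluster 4.

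In all, 7637 UMIs were assigned to Reln, 6833 to Vldlr, 27268 to Lrp8 and 472613 to Dab1. In the deposited gene table Reln lies on chromosome 5 from 22089452 to 22549700 and Vldlr on chromosome 19 from 27193884 to 27231631. Lrp8 (107659066 to 107734037) and Dab1 (103476556 to 104602041) both lie on chromosome 4. The table does not name the assembly of these positions, and they differ from those of the GRCm38 annotation. Lrp8 overlaps Lrp8os3, which had 870 UMIs. Whether counting used strand is not given in the sources used here, so reads of the overlap may have gone to either gene. The 4 genes were counted from nuclear RNA without a length scale, so levels are compared between clusters and genotypes, never between genes.

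The ligand was most abundant in cluster 5. Reln reached 96.5 CPM ± 27.1 (SD, n = 8 samples) there, and the 8 samples ran from 53.6 through a median of 97.5 to 130.0 CPM. Cluster 6 followed at 45.7 ± 14.2, then cluster 3 at 39.5 ± 8.1, cluster 2 at 36.4 ± 11.3, cluster 7 at 34.8 ± 10.1 and cluster 1 at 23.6 ± 10.7 CPM. The apical progenitor-like cluster 4 was lowest at 18.2 ± 11.4 CPM. Cluster 5 was above cluster 6 in 7 of 8 samples, whereas clusters 6, 3, 2 and 7 swapped places from sample to sample: each exceeded the next of them in 3 or 4 of 8. From the highest to the lowest cluster Reln differed 5.3-fold, in 8 of 8 samples. The clusters may have been made with these genes, so cluster levels are descriptions with no test.

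The receptors were arranged in opposite ways. Vldlr was highest in the deep-layer neuron-like clusters, at 53.4 CPM ± 4.9 in cluster 2 and 52.2 ± 3.0 in cluster 3. These clusters could not be ranked, since cluster 2 was the higher in 4 of 8 samples. Cluster 6 had 38.0 ± 5.5 CPM of Vldlr, cluster 7 31.8 ± 4.8, cluster 1 25.6 ± 2.6 and cluster 4 17.4 ± 3.8. The lowest Vldlr level, 12.5 ± 3.5 CPM, was in cluster 5, where Reln was highest.

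Lrp8, by contrast, peaked in cluster 5 at 312.6 CPM ± 21.7, and its 8 samples (280.8 to 334.9 CPM, median 314.2) lay above every sample of every other cluster. Next came cluster 7 at 164.7 ± 14.4, cluster 1 at 152.0 ± 9.2, cluster 6 at 129.3 ± 6.7 and cluster 4 at 110.3 ± 8.8 CPM. The clusters richest in Vldlr were the poorest in Lrp8, at 87.4 ± 5.8 CPM in cluster 3 and 86.8 ± 6.4 in cluster 2. Those clusters again could not be ranked, with cluster 3 the higher in 5 of 8 samples. Cluster 5 thus held the highest level of one receptor mRNA and the lowest of the other.

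The adaptor followed Vldlr. Dab1 reached 4789 CPM ± 274 in cluster 2, and its samples there (4415 to 5234 CPM, median 4764) lay above all samples of all other clusters. Cluster 6 followed at 2899 ± 462 CPM, then cluster 3 at 2488 ± 401, cluster 1 at 2180 ± 259 and cluster 7 at 2164 ± 172 CPM. Clusters 1 and 7 could not be ranked, with cluster 1 the higher in 4 of 8 samples. The lowest levels were 1018 ± 107 CPM in cluster 4 and 456.9 ± 226.8 in cluster 5. Dab1 differed 10.5-fold from the highest to the lowest cluster, in 8 of 8 samples.

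**Figure D1:**
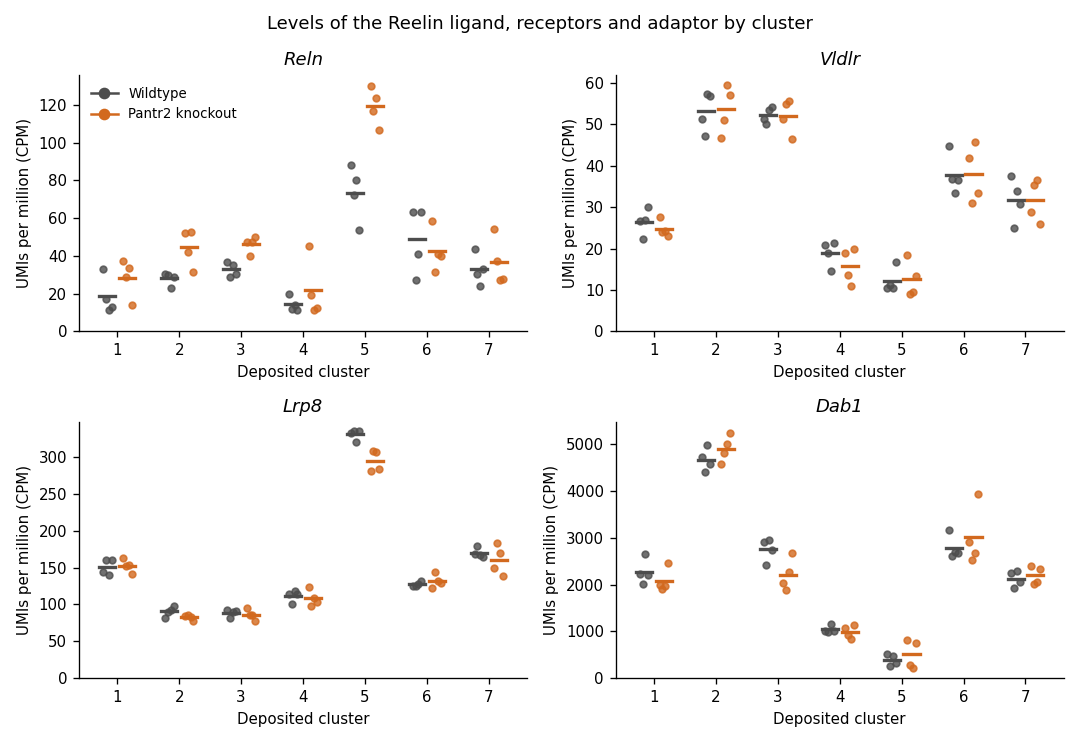
CPM (vertical axis) of each gene in the 7 deposited clusters (horizontal axis), with 1 point per sample and a bar at the mean of the 4 wildtype (grey) or 4 knockout (orange) samples. Reln and Lrp8 are highest in cluster 5 and Dab1 in cluster 2, whereas Vldlr and Dab1 are lowest in cluster 5, and the knockout points of Reln lie above the wildtype points in clusters 2, 3 and 5.

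Over the 56 cluster-by-sample sums, on the log2(CPM + 1) scale, Vldlr and Dab1 correlated at r = 0.886. Lrp8 ran against both, at r = -0.737 with Vldlr and -0.751 with Dab1. Reln correlated at 0.481 with Lrp8, -0.297 with Dab1 and -0.112 with Vldlr. Sums of 1 sample share a library and its depth, and 7 sums of a kind share a cluster, so these values describe the pattern only.

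Among 8900 genes with a mean of at least 10 CPM over these sums, those most like Vldlr were Nrg3 (r = 0.949), which encodes a neuregulin, Prkar2b (0.939), Cacng8 (0.936), Bend6 (0.933) and Grin2b (0.925), an NMDA receptor subunit. Dab1 was closest to Ncam1 (r = 0.938), a neural cell adhesion molecule, then Dipk1a (0.925), Ablim1 (0.923), Gpr176 (0.913) and Macrod2 (0.898). Lrp8 was closest to Trak2 (r = 0.932), Myt1 (0.929), a zinc finger factor, Aff4 (0.923), Cracd (0.916) and Slc39a11 (0.914), a zinc transporter. Reln had looser neighbours: Miat (r = 0.788), a long noncoding RNA, Clvs1 (0.780), Slc22a15 (0.767), Nol4 (0.752) and Pcmtd1 (0.747).

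Detection per nucleus showed the same contrasts. After thinning each nucleus to 1400 UMIs, Dab1 had a UMI in 98.6% ± 0.938 of cluster 2 nuclei and in 22.1% ± 7.27 of cluster 5 nuclei (mean ± SD over 8 samples). Lrp8 was detected in 32.9% ± 2.45 of cluster 5 nuclei and in 11.2% ± 0.960 of cluster 2 nuclei. Vldlr was found in 7.03% ± 0.559 of cluster 3 nuclei and in 1.51% ± 0.527 of cluster 5 nuclei, and Reln in 7.81% ± 2.35 of cluster 5 nuclei and in 1.85% ± 0.815 of cluster 4 nuclei. Without thinning these shares were 99.6% and 30.2% for Dab1, 50.4% and 22.4% for Lrp8, 15.0% and 3.07% for Vldlr, and 11.3% and 3.79% for Reln. Clusters 2, 3, 4 and 5 had median depths of 2820, 3040, 2908 and 2349 UMIs. Free RNA gives UMIs in nuclei that do not express a gene, so the lowest cluster's share is the level that background could reach.

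Within the apical progenitor-like cluster 4 the deposited tables place nuclei on a circular cell cycle scale. The proliferation genes Mki67 and Top2a peaked in the range centred on π, which starts at 0.75 π, in 8 of 8 samples, at 180.9 CPM ± 24.8 and 582.4 ± 68.9. In that range, with 7022 nuclei, Lrp8 stood at 95.2 CPM ± 11.9 and was lowest in 7 of 8 samples. It was 140.8 ± 12.6 CPM between 0.25 and 0.75 π and 149.5 ± 31.3 CPM in the range centred on 0. Vldlr showed the same dip, from 21.3 ± 4.47 CPM between 0.25 and 0.75 π to 14.7 ± 4.07 around π and 27.0 ± 7.16 around 0, and was lowest around π in 4 of 8 samples. Dab1 moved little, at 1110 ± 157, 975.5 ± 78.1 and 1052 ± 292 CPM in these ranges. Reln, at 14.6 to 19.3 CPM over the 4 ranges, varied more between samples than between ranges. The range that follows the one centred on π, opposite to 0.25 to 0.75 π, held 195 nuclei, too few to place the receptors. The angle is computed from expression, and the comparison carries no test.

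**Figure D2:**
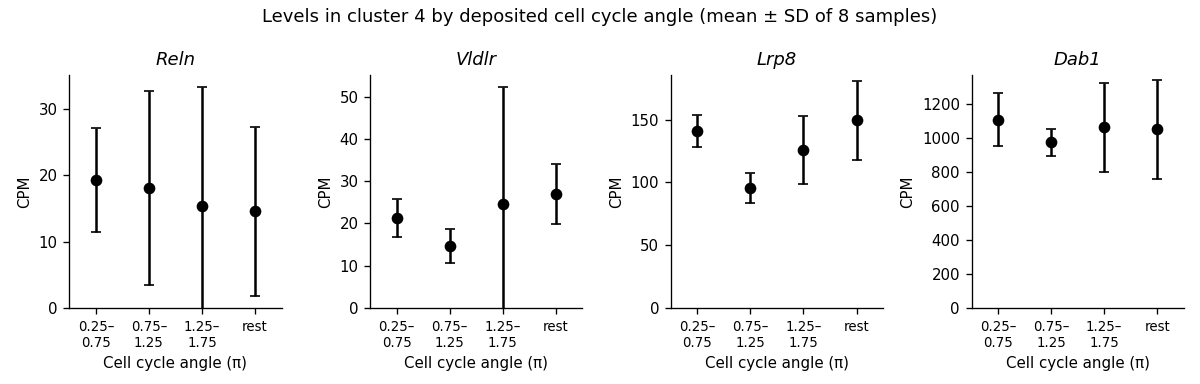
CPM (vertical axis) in cluster 4 nuclei for 4 ranges of the deposited cell cycle angle, in units of π (horizontal axis), as mean ± SD of 8 samples. Lrp8 falls to 95.2 CPM around π against 140.8 CPM in the first and 149.5 CPM in the last range, and the wide bars of the third range go with its 195 nuclei.

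Reln rose in the knockout in 3 clusters, and no other member was called in these fits. Knockout was compared with wildtype by edgeR's quasi-likelihood test on UMIs summed per sample, with Benjamini-Hochberg adjustment over all genes tested and a threshold of 0.05. These main fits took the samples as unpaired, although samples with the same replicate number deviated together. Fits with replicate number as a block called more and are given beside them. Within clusters 3 of 28 tests were called, all of them Reln, and of all genes tested 9.11% were called in cluster 2, 3.36% were in cluster 3 and 1.77% were in cluster 5. Cluster 1 had 4.84% of genes called, cluster 4 had 4.29%, cluster 6 had 0.779% and cluster 7 had 1.03%, and there edgeR called none of the 4 members. In these 4 clusters 1 member test, Reln in cluster 1, had an unadjusted p under 0.05, and DESeq2 called 0. Levels in this comparison are CPM scaled by TMM factors and differ slightly from those above.

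In the intermediate progenitor-like cluster 5 Reln stood at 86.8, 72.0, 81.2 and 53.4 CPM in wildtype replicates 1 to 4 and at 130.7, 118.9, 126.7 and 108.5 CPM in knockout replicates 1 to 4. Every knockout sample exceeded every wildtype sample. The means were 73.4 ± 14.6 and 121.2 ± 9.78 CPM (SD, n = 4 each), and the log2 fold change was 0.73 ± 0.13 (SE), at an adjusted p of 0.00801 in edgeR. The call held in every alternative fit, at an edgeR adjusted p of no more than 0.0323 in the fits without 1 sample.

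In the deep-layer neuron-like cluster 2 Reln had 30.6, 29.9, 23.3 and 28.6 CPM in wildtype and 51.8, 42.9, 53.3 and 31.5 CPM in knockout replicates 1 to 4. The groups did not overlap, although knockout replicate 4 lay close to wildtype replicate 1. The log2 fold change was 0.67 ± 0.15 (SE; edgeR adjusted p 0.0127). Without knockout replicate 3 it was 0.57 with an adjusted p of 0.0538.

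In the deep-layer neuron-like cluster 3 Reln had 36.4, 28.6, 35.6 and 29.9 CPM in wildtype and 47.3, 40.9, 48.4 and 50.2 CPM in knockout replicates 1 to 4. Again every knockout sample was above every wildtype sample. The log2 fold change was 0.52 ± 0.10 (SE; edgeR adjusted p 0.0131). This call too depended on knockout replicate 3, without which the change was 0.50 with an adjusted p of 0.0539.

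Elsewhere the Reln groups overlapped. In the upper-layer neuron-like cluster 1 Reln had 32.2, 17.0, 11.6 and 12.8 CPM in wildtype and 37.2, 29.5, 34.3 and 14.3 CPM in knockout replicates 1 to 4. Wildtype replicate 1 was high and knockout replicate 4 low for their groups. The log2 fold change was 0.73 ± 0.30 (SE; edgeR adjusted p 0.222), and 0.71 with an adjusted p of 0.0391 once replicate number was a block. It was also called without wildtype replicate 1 (1.05, adjusted p 0.0333) and without knockout replicate 4 (0.93, adjusted p 0.0460).

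Cluster 4 turned on 1 library. Reln had 45.9 CPM in knockout replicate 1 against 11.6 to 19.5 CPM in the other knockout samples and 11.3 to 19.7 CPM in wildtype. The log2 fold change of 0.69 ± 0.40 (edgeR adjusted p 0.441) became 0.06 without that sample. In clusters 6 and 7 the log2 fold changes were -0.18 ± 0.26 (edgeR adjusted p 0.900) and 0.20 ± 0.21 (0.864).

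Summed over all nuclei, none of the 4 members was called in the main fit, against 5.26% of 13927 genes. Reln came closest, at 39.8, 28.0, 30.3 and 29.6 CPM in wildtype and 55.6, 42.6, 45.9 and 36.6 CPM in knockout replicates 1 to 4, with only knockout replicate 4 below the highest wildtype sample. Reln was higher by 0.50 ± 0.14 (log2, SE) in the knockout, with an edgeR adjusted p of 0.0685. It was the only member with an unadjusted p under 0.05 there. With the replicate block the adjusted p was 0.00358, by DESeq2's Wald test 0.0129, without wildtype replicate 1 0.0269 and without knockout replicate 4 0.0300. In sums over tissue, more cells expressing Reln and more Reln RNA per cell cannot be told apart.

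**Figure D3:**
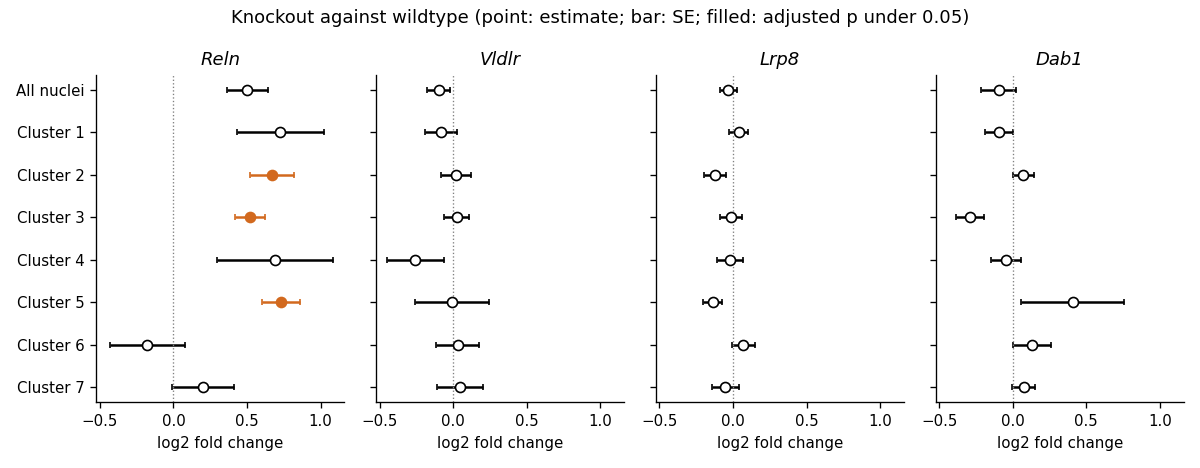
Log2 fold change of knockout against wildtype (horizontal axis) for each member in all nuclei and in the 7 clusters (rows), with bars of 1 SE. Filled points, with adjusted p under 0.05, are those of Reln in clusters 2 (0.67), 3 (0.52) and 5 (0.73), and every point of the receptors and the adaptor is unfilled.

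Other transcripts moved alongside Reln. In cluster 5 the 11 interneuron genes summed to 99.9 to 142.6 CPM in wildtype and 49.8 to 100.7 CPM in knockout samples, opposite to Reln, and the 11 Cajal-Retzius genes to 40.5 to 68.2 and 56.0 to 75.2 CPM. The dorsal telencephalon list there was 706.8 to 739.6 CPM in wildtype and 837.5 to 903.8 CPM in knockout samples. In clusters 2 and 3 the Cajal-Retzius ranges overlapped (14.8 to 19.0 against 13.7 to 20.8 CPM, and 21.3 to 30.4 against 24.6 to 28.2 CPM). The interneuron ranges there did not, with wildtype at 89.4 to 122.6 and 104.0 to 148.5 CPM and knockout at 42.0 to 74.7 and 45.5 to 89.5 CPM. No gene of either list was at 0 in these sums. Their part in the Reln result was not tested.

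The receptors and the adaptor gave no call in the main fits. Vldlr had edgeR log2 fold changes of -0.26 to 0.04 over the 8 fits, and its wildtype and knockout samples overlapped in each. Lrp8 lay between -0.14 and 0.07. In cluster 5, its richest cluster, Lrp8 had 326.5, 332.6, 325.2 and 333.7 CPM in wildtype and 282.2, 313.6, 312.7 and 288.8 CPM in knockout replicates 1 to 4. The groups did not overlap there, but the log2 fold change of -0.14 ± 0.06 did not pass (edgeR adjusted p 0.508).

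Dab1 showed its clearest shift in cluster 3, with 2874, 2410, 2997 and 2682 CPM in wildtype and 2034, 1930, 2325 and 2679 CPM in knockout replicates 1 to 4. Knockout replicate 4 lay within the wildtype range and the other 3 below it. The log2 fold change was -0.29 ± 0.10 (edgeR adjusted p 0.145). With the replicate block the adjusted p was 0.0236, and without knockout replicate 4 it was 0.0231, at a change of -0.39. In cluster 5 the knockout samples split, with 813.0 and 772.7 CPM of Dab1 in replicates 1 and 4 and 288.5 and 227.7 CPM in replicates 2 and 3, around wildtype levels of 265.7 to 501.9 CPM. Knockout replicates 1 and 4 were also those without Xist UMIs. Wildtype replicate 4, likewise without Xist UMIs, had 315.9 CPM of Dab1. Whether the split goes with Xist was not tested. In the other 6 fits the Dab1 log2 fold changes lay between -0.10 and 0.13.

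Whether a genotype effect differed between a cluster and the remaining nuclei was tested for the 4 members in 7 clusters by an exact two-sided permutation test over samples. None of the 28 differences passed after adjustment, and the lowest adjusted p was 0.456. The difference for Reln in cluster 5 was 0.34 on the log2 scale (exact p = 0.114) and that in cluster 6 was -0.72 (exact p = 0.0857). Dab1 in cluster 3 had the lowest exact p, 0.0286, which is also the smallest that 4 against 4 samples allow. After adjustment over 28 tests a single difference could not pass even at that p, so the test cannot decide whether effects differ. The calls of Reln in clusters 2, 3 and 5 are not shown to be larger than its changes elsewhere, nor to be equal to them.

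Reln molecules were spread thinly over many nuclei and piled up in a few. Of all nuclei, 62853 had no Reln UMI, and nuclei with exactly 1 held 40.8% of all Reln UMIs. At the other end, 233 nuclei had at least 5 Reln UMIs, up to 50, and held 22.7% of them. This is a range of counts and not a cell type: 137 nuclei with 4 UMIs lie just below the limit and 84 with 5 just inside it. Their median depth was 3817 UMIs against 2763 in the other nuclei. Cluster 5 contained 95 of the 233 (40.8%), cluster 6 38, cluster 3 33, clusters 2 and 4 20 each, cluster 1 16 and cluster 7 11.

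Wildtype samples had 32, 12, 22 and 21 of these Reln-rich nuclei and knockout samples 33, 51, 39 and 23. Their share of all nuclei was 0.259% ± 0.103 in wildtype and 0.430% ± 0.0777 in knockout samples (SD, n = 4 each; exact two-sided permutation p = 0.0571). Only wildtype replicate 1, at 0.390%, and knockout replicate 4, at 0.316%, broke the separation. With a limit of 3 UMIs the shares were 0.762% and 1.17% (652 nuclei, exact p = 0.0571), and with 10 UMIs 0.0441% and 0.0481% (31 nuclei, exact p = 0.914). None of these passes 0.05. Single libraries supplied many of the nuclei in some clusters, with 13 of 20 in cluster 4 from knockout replicate 1 and 11 of 20 in cluster 2 from knockout replicate 3.

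With the Reln-rich nuclei taken out, an alternative added after the data were seen, the knockout to wildtype ratio of mean Reln levels was 1.51 in cluster 5 (1.66 with them), 1.52 in cluster 2 (1.59 with them) and 1.26 in cluster 3 (1.43 with them). The groups were still separate in cluster 2 and overlapped in clusters 3 and 5. In cluster 5 knockout replicate 4 then had 51.8 CPM, within the wildtype range of 41.9 to 55.3 CPM, and the other knockout samples 71.7 to 88.4 CPM. These nuclei were removed by the measured gene itself, so the ratios are given without a test.

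The share of nuclei with any Cajal-Retzius transcript climbed with the Reln count. A UMI from any of the 11 listed genes was present in 7.16% of nuclei without Reln, 8.83% with 1 Reln UMI, 13.2% with 2, 19.6% with 3 to 4, 31.7% with 5 to 9 and 67.7% of the 31 nuclei with 10 or more. The share with a UMI of any of the 11 interneuron genes stayed between 19.4% and 23.2% over the same classes. Nuclei with UMIs of at least 2 genes of a list were rarer. For the Cajal-Retzius list they made up 0.317% without Reln, 8.91% with 5 to 9 Reln UMIs and 29.0% with 10 or more, and for the interneuron list 2.78%, 6.93% and 0 of 31, which allows a share of up to 9.68%. Median depth rose as well, from 2745 UMIs in nuclei without Reln to 5234 in those with 10 or more, and both lists were read at the same depths. Even so, 63.5% of the 233 Reln-rich nuclei had no Cajal-Retzius transcript at their depth. Single genes of the list were found in 0% (Barhl2) to 15.0% (Cacna2d2) of the 233, Trp73 in 2.15% and Lhx5 in 4.29%. The classes also differ in cluster make-up. Cluster 5 held 11.0% of nuclei without Reln and 38.7% of those with 10 or more. For cluster 6 these shares were 8.15% and 38.7%.

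**Figure D4:**
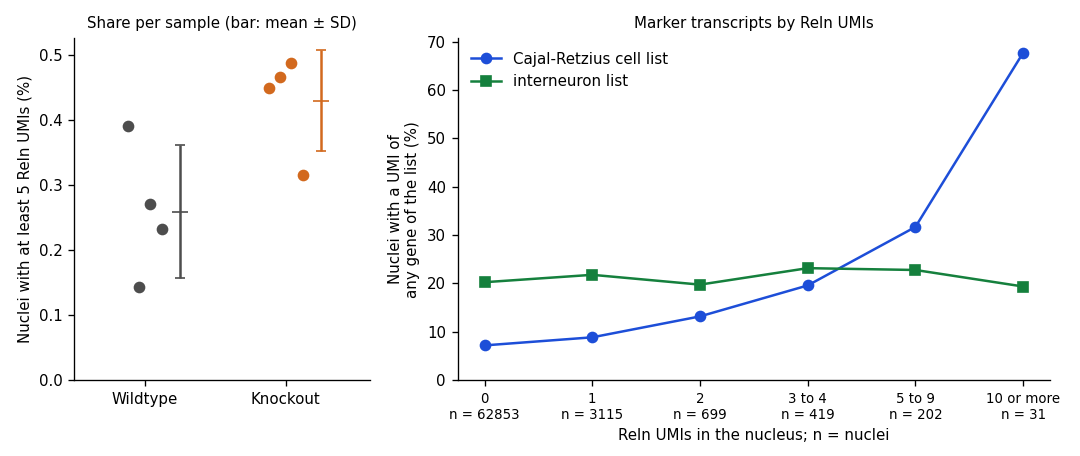
Left, percent of nuclei with at least 5 Reln UMIs in each sample (points) with mean ± SD (bar) for wildtype (0.259%) and knockout (0.430%). Right, percent of nuclei with a UMI of any Cajal-Retzius (blue) or interneuron (green) list gene, by Reln UMIs in the nucleus (n, nuclei): the first climbs from 7.16% to 67.7% and the second stays between 19.4% and 23.2%. The classes of Reln UMIs differ in depth and in cluster make-up.

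Gene by gene, levels pooled over Reln-rich nuclei were compared with those over all other nuclei. Of the Cajal-Retzius genes, the transcription factor gene Ebf2 was 21.4-fold higher (42.1 against 1.97 CPM, 41 UMIs, higher in 6 of 8 samples) and Lhx5, a LIM homeobox gene, 19.3-fold (11 UMIs, 4 of 8 samples). Trp73, which encodes the p73 transcription factor, was 7.84-fold higher (6 UMIs, 3 of 8 samples) and Ebf3 6.32-fold (21 UMIs, 5 of 8 samples). Cacna2d2, a calcium channel subunit gene, was the only one higher in 8 of 8 samples, by 6.85-fold (50.4 against 7.35 CPM, 49 UMIs). Calb2, the calretinin gene, was 4.14-fold higher (8 UMIs), the chemokine receptor gene Cxcr4 3.72-fold (15 UMIs) and Nhlh2 2.97-fold (19 UMIs). Lhx1 and Ndnf gave 3 and 2 UMIs, and Barhl2 none.

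Interneuron genes were mostly near the level of the other nuclei. Gad1, which encodes a GABA-synthesising enzyme, was 3.11-fold higher on 11 UMIs, in 7 of 8 samples. Its partner Gad2 was at 18.5 against 15.7 CPM, Sst (somatostatin) at 16.4 against 10.7 and Maf at 5.14 against 4.76 CPM. Dlx5 (4.11 against 5.67 CPM), Dlx6os1 (9.25 against 15.3) and Npy (8.22 against 13.1) were lower on 4 to 9 UMIs. Dlx2, Lhx6 and Slc32a1 gave 3 UMIs each.

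The Reln-rich nuclei were not alike across clusters. Ebf2 was detected in 31.6% of the 38 in cluster 6 and Trp73 and Lhx5 in none of them. In cluster 5 Lhx5 was found in 6.32%, Trp73 in 3.16% and Ebf3 in 10.5% of 95 nuclei. Any Cajal-Retzius transcript was found in 60.5% of the 38 in cluster 6 (7.13% of the other nuclei there), 55.0% of the 20 in cluster 4 (9.18%) and 41.1% of the 95 in cluster 5 (12.4%). The shares were lower in cluster 7, at 27.3% of 11 (11.6%), cluster 1, at 18.8% of 16 (4.05%), cluster 3, at 12.1% of 33 (7.46%), and cluster 2, at 10.0% of 20 (4.66%). Of the 31 nuclei with 10 or more Reln UMIs, 12 lay in cluster 5 and 12 in cluster 6, 4 of the latter with Ebf2, and none had a Gad1 or Gad2 UMI.

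Genes outside the Cajal-Retzius and interneuron lists that ran highest in Reln-rich nuclei, each in 8 of 8 samples, were chosen after their values were seen. They were led by Rasgrp1 (20.2-fold, 28 UMIs), Htr2c, a serotonin receptor gene (17.8-fold, 149 UMIs), Lrrc3b (11.4-fold), the tachykinin gene Tac2 (10.8-fold) and Ebf1 (10.3-fold, 357 UMIs), a gene of the striatal neuron list. These ratios mix clusters: 40.8% of Reln-rich nuclei but 11.6% of all nuclei lay in cluster 5, where Tac2 was the leading gene and Ebf1 was at its highest. Mean levels of the receptors and of Dab1 were not higher in Reln-rich nuclei, a comparison that mixes clusters as well. Cluster 5 had the highest Lrp8 level and the lowest levels of Vldlr and Dab1. Vldlr had 24.8 ± 15.96 CPM in Reln-rich and 34.5 ± 2.71 in other nuclei (mean ± SD, n = 8), Lrp8 115.6 ± 56.2 against 136.3 ± 7.50, and Dab1 2026 ± 869 against 2394 ± 290.

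Shares of nuclei with a UMI gave no call by genotype. In the exact permutation test the smallest p that 4 against 4 samples allow is 0.0286. After adjustment over 4 members a single member could not have passed. After thinning, Reln was detected in 3.15% ± 0.576 of wildtype and 4.36% ± 1.00 of knockout nuclei (exact permutation p = 0.0857, adjusted over 4 members 0.171). Lrp8 was found in 17.0% ± 0.567 and 16.1% ± 0.757 (exact permutation p = 0.0857, adjusted 0.171). The shares for Vldlr were 4.56% and 4.39%, and for Dab1 71.3% and 70.7%, with adjusted exact p-values of 0.800 and 0.829.

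Genes of the wider pathway were called mostly in the upper-layer neuron-like cluster 1 and the deep-layer neuron-like cluster 2. A list of 60 genes that act in or beside Reelin signalling was read, and 59 were in the table. In all nuclei 3 of 59 tested were called (5.08%, against 5.26% of all genes), all of them lower. In cluster 2 10 of 56 were called (17.9% against 9.11%), 4 higher and 6 lower, and in cluster 1 7 of 55 (12.7% against 4.84%), 2 higher and 5 lower. Cluster 3 had 1 of 56 called (1.79% against 3.36%) and cluster 4 3 of 56 (5.36% against 4.29%), all lower. Clusters 5, 6 and 7 had none by edgeR, with 6, 5 and 7 genes at an unadjusted p under 0.05 and 1, 1 and 0 called by DESeq2. The median log2 fold change of the list stayed between -0.01 and 0.04 in the 8 fits, beside -0.0027 to 0.0057 for all genes.

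The genes of Reelin-cleaving enzymes went in opposite directions. ADAMTS2 and ADAMTS3 cut and inactivate Reelin. Adamts2 fell in cluster 1, from 67.3, 71.8, 86.3 and 101 CPM in wildtype replicates 1 to 4 to 38.6, 45.2, 54.8 and 55.6 CPM in knockout replicates 1 to 4 (log2 fold change -0.75, edgeR adjusted p 0.00395). It also fell in cluster 2 (-1.30, adjusted p 0.00438) and in all nuclei (-0.58, adjusted p 0.0224). No knockout sample reached the wildtype range in these 3 fits.

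Adamts3 rose in cluster 2, from 256.0, 280.5, 323.1 and 267.7 CPM in wildtype to 498.1, 627.9, 564.7 and 462.4 CPM in knockout replicates 1 to 4 (log2 fold change 0.93, edgeR adjusted p 8.76e-05). In cluster 1 it rose by 0.35 (adjusted p 0.00544). Plat, which encodes tissue plasminogen activator, another protease that can cut Reelin, rose in cluster 2 (4.97 ± 1.02 to 8.98 ± 1.07 CPM, adjusted p 0.0115, edgeR) and fell in cluster 4 (12.5 ± 1.51 to 5.63 ± 1.20 CPM, adjusted p 0.00405, edgeR).

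Genes for other ligands and receptors of the family were called in both directions. Spon1 encodes F-spondin, a secreted ligand of ApoER2, and fell from 25.9 ± 4.95 to 11.9 ± 1.81 CPM in cluster 2, from 17.9 ± 3.71 to 7.82 ± 2.31 in cluster 4 and from 18.9 ± 3.04 to 11.8 ± 1.43 in all nuclei (edgeR adjusted p 0.000584, 0.00863 and 0.0174). Lrp2, the megalin gene, fell in cluster 4 from 10.8 ± 2.38 to 3.58 ± 1.10 CPM (edgeR adjusted p 0.00191). Lrp1b, another lipoprotein receptor gene, fell in clusters 2 (-1.29, adjusted p 0.00428) and 3 (-0.69, adjusted p 0.00192) and rose in cluster 1 (0.52, adjusted p 0.0155). Thbs1, which encodes thrombospondin, a ligand of both receptors, was called higher in cluster 2 by edgeR, from 1.69 ± 0.248 to 4.17 ± 0.930 CPM (adjusted p 0.00779).

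Downstream of DAB1, Nectin3, which encodes a cell adhesion molecule of migrating neurons, fell in cluster 2 from 110.6 ± 23.2 to 56.7 ± 5.80 CPM (edgeR adjusted p 0.000439) and in cluster 1 from 98.6 ± 8.64 to 69.7 ± 12.4 CPM (adjusted p 0.0168). Nectin1, its partner on Cajal-Retzius cells, fell in the same clusters, in cluster 1 from 57.5 ± 6.26 to 39.1 ± 4.15 CPM (edgeR adjusted p 0.00405) and in cluster 2 from 27.0 ± 3.99 to 17.5 ± 1.07 CPM (adjusted p 0.00570). Pik3r1, a regulatory subunit of PI3-kinase, fell in cluster 1 (-0.48, edgeR adjusted p 0.0130) and in all nuclei (-0.30, adjusted p 0.0158). Dab2ip, a DAB1-interacting GTPase-activating protein gene, rose in cluster 2 (0.52, edgeR adjusted p 0.00485). The calls of Pik3r1 and Spon1 in all nuclei, and of Lrp1b and Pik3r1 in cluster 1, were lost without wildtype replicate 4, knockout replicate 2 or knockout replicate 3, with adjusted p-values up to 0.0691. That of Adamts2 in all nuclei was lost without these and without wildtype replicate 3, with adjusted p-values up to 0.0632. The call of Nectin3 in cluster 1 was lost without knockout replicate 2. Calls outside the 3 lowest adjusted p-values of a fit and direction were otherwise not followed with a sample left out. Over the 8 fits, without the replicate block, 13 of the 59 genes were called at least once.

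With the replicate block more of the list, and more of all genes, passed. In all nuclei 11 of 59 pathway genes were then called (18.6%, against 9.65% of all genes), 11 of 55 in cluster 1 (6.86% of all genes) and 11 of 56 in cluster 2 (10.4% of all genes). Clusters 3, 4, 6 and 7 had 3 each and cluster 5 had 1, with 5.48%, 4.03%, 2.40%, 2.42% and 1.79% of all genes called in clusters 3, 4, 6, 7 and 5. Over the 8 blocked fits 17 pathway genes were called at least once, among them the 13 called without the block.

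**Figure D5:**
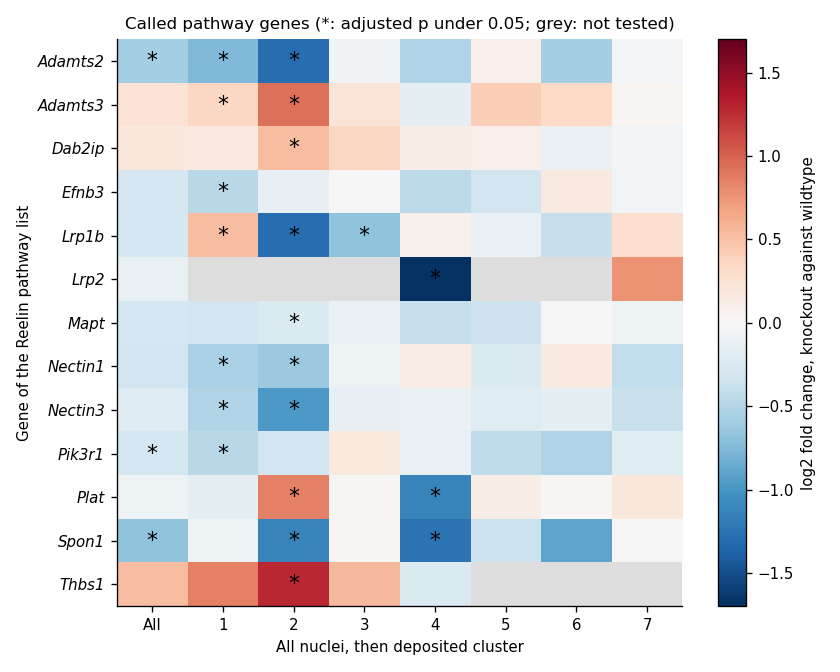
Log2 fold change of knockout against wildtype (colour, blue lower and red higher) for the 13 genes of the pathway list called at least once (rows), in all nuclei and in the 7 clusters (columns), with asterisks where the adjusted p is under 0.05. The asterisks gather in clusters 1 and 2, Adamts2 and Adamts3 have opposite colours there, and clusters 5, 6 and 7 carry none.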

How the data were processed

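Nuclei of 4 wildtype and 4 Pantr2 knockout samples were profiled with 10x 3' chemistry, per the labels' protocols. The submitters' processing notes name kallisto, bustools and mm10, and the versions are not given in the sources used here. The deposited matrices hold raw UMI counts per gene and nucleus (14166 genes). The authors' cell tables also hold cluster and group numbers, a doublet score and a cell cycle angle. Every deposited nucleus has at least 1496 UMIs. Nuclei were taken as deposited, with no further filter and no doublet caller: the deposited hybrid score never exceeded 0.5. The members and all gene lists were chosen with earlier results of these data known.

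UMIs were added up for each sample, in total and by cluster, and the genotypes were compared with edgeR 4.0.16 in R 4.3.3 (TMM, filterByExpr, quasi-likelihood test, Benjamini-Hochberg over all genes tested). DESeq2 1.42.0 was an alternative. Scripts were tested on simulated data. Levels across clusters are CPM without TMM factors. Shares were taken after thinning to 1400 UMIs (no nucleus was shallower), and single values were compared by two-sided exact permutation of samples (70 arrangements, SciPy 1.17.1). Intervals given are SD or SE over samples.

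Pathway genes were named in a fit if among the 3 called with the lowest adjusted p in a direction, and then given in other fits that called them. For each member the 5 genes with the highest correlation were named. Sox2, Neurog1, Dlx1, Dlx6, Col1a1, Col1a2 and Cdk5r2 were not analysed here. Some marker genes are not reported here by name.

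The labels give both groups replicates 1 to 4. After the group means were removed, samples with the same number correlated at 0.398, 0.185, 0.192 and 0.180 across genes. All were above 0.1, the limit set for reading the numbers as pairs. The main fits and the permutation tests still treated the samples as unpaired, with the replicate block as an alternative. Pairs with different numbers ran from -0.356 to 0.287, and 3 of the 12 were above 0.1: wildtype 3 with knockout 4 (0.287), 2 with 3 (0.167) and 1 with 2 (0.113). The pairing comes from the data, and the labels do not say what a number marks.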

Additional observations from a re-analysis of the deposited data

Results flagged for a closer look

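In groups of 4 samples, a value was looked at again where its gap to the nearest other sample exceeded 0.829 of the group's range (Dixon's 95% limit). Of 66 groups of member levels and Reln-rich shares, 3 held such a sample, and chance gives about 1 in 20. Dab1 in cluster 1 stood at 2500 CPM in knockout replicate 4, against 1951 to 2013 CPM in the other knockout samples. Dab1 in cluster 4 stood at 1174 CPM in wildtype replicate 3, against 985.9 to 998.9 CPM in the other wildtype samples. Vldlr in cluster 5 stood at 16.7 CPM in wildtype replicate 4, against 10.4 to 11.2 CPM in the others.

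Pathway genes called in opposite directions in 2 clusters gave 3 pairs, which were chosen after their values were seen. For Lrp1b the knockout effect on the log2 scale was 1.65 higher in cluster 1 than in cluster 2 and 1.16 higher than in cluster 3. For Plat it was 2.03 higher in cluster 2 than in cluster 4. Because the pairs were picked for these opposite calls, the differences are values only, and no test of them is given.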

How the results depend on the processing

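The member fits were repeated under 13 alternatives: DESeq2 size factors, DESeq2's Wald test, no low-count filter, the replicate block, log2 Xist level as a covariate, and each of the 8 samples left out. Of 416 recomputed log2 fold changes 376 kept their direction and side of the threshold, 9 newly passed it, 2 no longer did and 29 changed sign, none of them called and none with a size above 0.20 with all samples. The call of Reln in cluster 5 held throughout. Members called in all nuclei went from 0 to 1 (Reln) by DESeq2's Wald test and with the replicate block, and ranged from 0 to 1 with a sample left out. Reln was then at 0.51 by the Wald test, at 0.50 with the block, and at 0.39 to 0.63 with a sample left out. Calls within clusters went from 3 to 5 with the replicate block, adding Reln in cluster 1 and Dab1 in cluster 3, and ranged from 1 to 5 with a sample left out. The block moved pathway calls over the 8 fits from 24 to 46, and it changed no other member call. Pathway calls ranged from 17 to 30 with a sample left out. The cause of these shifts was not tested.

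Signs changed with a sample left out for Lrp8 in all nuclei (-0.0571 to 0.0115), cluster 3 (-0.0504 to 0.0354), cluster 4 (-0.0882 to 0.0332) and cluster 7 (-0.12 to 0.0084), and for Reln in cluster 7 (-0.0137 to 0.33). They did so for Vldlr in cluster 2 (-0.0382 to 0.0845), cluster 3 (-0.0138 to 0.0807), cluster 5 (-0.25 to 0.20), cluster 6 (-0.0682 to 0.14) and cluster 7 (-0.0617 to 0.13), and for Dab1 in cluster 1 (-0.18 to 0.0025), cluster 4 (-0.12 to 0.0294) and cluster 6 (-0.0283 to 0.21). Vldlr in cluster 5, at -0.0053, was 0.0251 by the Wald test, 0.0043 without the filter and 0.0608 with the replicate block. Dab1 shares differed by 0.0349 percentage points without thinning, against -0.58 with it. Without Reln-rich nuclei the ratio of mean Reln levels in cluster 6 was 1.03, against a fold change fitted by edgeR of 0.885 with them. The difference in Reln-rich shares was 0.13 to 0.21 percentage points with a sample left out, with exact p-values of 0.0571 to 0.114. With a sample left out the smallest exact permutation p possible is 0.0571, so none of these could pass 0.05.

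All 28 cluster levels moved by under 1 SD when averaged over nuclei, and all 28 cluster differences stayed uncalled with 1 UMI added. Of the 5 genes named as most like a member, Spearman correlation kept 3 for Reln, 3 for Vldlr, 1 for Lrp8 and 1 for Dab1. In wildtype samples only, 1, 2, 3 and 4 stayed, in the same order. Depth limits Reln and Vldlr most: 7 Reln UMIs lie behind the 195 nuclei of the thinnest cell cycle range, and most marker genes in Reln-rich nuclei rest on under 20 UMIs.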

Other observations

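Genes within 1 Mb of each member in the deposited gene table were also read. Beside Reln 13 to 15 such genes were tested in a fit. In clusters 3 and 5, where Reln rose, 0 of 14 and 0 of 13 were called by edgeR (of all genes 3.36% and 1.77%), 1 and 0 had an unadjusted p under 0.05, and DESeq2 called 0. In cluster 2 edgeR called 1 of 14 (of all genes 9.11%), Gsap, which was higher. Gsap was called lower in cluster 4 (1 of 14, of all genes 4.29%). Ccdc146 was called higher in cluster 1 (1 of 14) and in all nuclei (1 of 15). Beside Dab1, all calls were lower: 2 of 9 in cluster 3, Oma1, a mitochondrial protease gene, and Plpp3, then 3 of 10 in cluster 1 (of all genes 4.84%), 3 of 10 in cluster 2 and 2 of 12 in all nuclei (of all genes 5.26%). Oma1 was among them in each of these fits. Beside Lrp8, 0 of 26 were called by edgeR in cluster 5 (of all genes 1.77%). There 3 had an unadjusted p under 0.05 and DESeq2 called 0. Elsewhere edgeR called 3 of 27 in cluster 4 (of all genes 4.29%) and 3 of 27 in cluster 2 (9.11%). It called 2 of 27 in cluster 3 (3.36%) and 2 of 30 in all nuclei (5.26%). Cluster 1 had 1 of 26 (4.84%) and cluster 6 had 1 of 24 (0.779%). Cluster 7 had 0 of 24 (1.03%), with 2 at an unadjusted p under 0.05 and 0 by DESeq2. Scp2, a sterol carrier gene, was higher in clusters 1, 2, 3 and 6. Beside Vldlr 1 of 6 was called in cluster 1, Smarca2, a chromatin remodelling gene, and 1 of 6 in all nuclei, Gm35438, each lower. These genes were chosen by position alone, and their part in the members' values was not tested.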
